A study of Drosophila melanogaster with 9 samples.

Results

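Hearts of females fed a high sugar diet (HSD) were compared with hearts of females fed a high fat diet (HFD), using the 6 libraries whose labels give these diets, of 9 in the series. The members were chosen by diet label and by no measured value, and 8356 genes passed a limit on low values, out of 13915 rows above 0. The flies were mated w1118 females, described by the study as 10 days old, and the labels of all 9 libraries give 10 days. By the study's methods, flies on every diet were moved to a lower temperature for the last 3 days. Each library pooled the dissected hearts of several females, 15 by the sample labels and a larger number by the study's methods. HSD was normal diet (ND) with 30% w/v sucrose added and was fed for 10 days, whereas HFD contained 30% coconut oil and was fed for 3 days after 7 days on ND. The added nutrient and the time spent on it therefore cannot be told apart in this comparison. The third group, 10 days on ND, serves here as the untreated level. One strain and 1 sex were used, so nothing is measured here on other genotypes or on males.

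The adult fly heart is a contractile tube of cardiomyocytes, flanked by pericardial nephrocytes and lying under the dorsal cuticle beside fat body and oenocytes. Dietary sugar enters glycolysis, from which serine is made, and serine gives up one-carbon units to folate carriers that feed the synthesis of purines. Fatty acids are activated to acyl-CoA before they are oxidised, elongated into the hydrocarbons of the cuticle or stored as triglyceride in lipid droplets. The fat body exports lipids in lipoprotein particles, and the transcription factor Mondo, with its partner Bigmax, mediates much of the transcriptional response to sugar in Drosophila.

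Expression was deposited as RPKM, a read count divided by the length of the gene and by the size of its library. Libraries held 59941761 to 90069216 reads counted on genes. A neighbouring row's label stands on 2316 rows above 0, in 9 runs of consecutive rows, and these labels were realigned here. With the annotated length of the labelled gene, 10.9% of these rows gave whole reads as listed and 95.4% after realignment. Values below are RPKM scaled between libraries, always given in the order A, B and C, and log2FC is the difference HSD minus HFD of log2(scaled RPKM + 0.5), which understates the change of genes with low values. A gene was called where limma, fitted to all 9 libraries with Benjamini-Hochberg adjustment, gave an adjusted p under 0.05 and the difference was at least 1.5-fold. For 3 libraries against 3, the smallest two-sided p of an exact permutation test is 0.1. The study describes independent samples on different days, with a tube of each diet on each date, and the labels do not say which letter was collected when, so the p-values measure the spread between these libraries.

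Across genes, which are not independent replicates, pairs of libraries from 1 diet correlated with Pearson's r of 0.980 to 0.994 on the log2 scale. On the first 3 principal components, HFD library C stood apart from the other HFD libraries on the third, at 25.8 against -6.79 and -7.06, HSD library A lay closer to HFD on the first, at -8.75 against -17.0 and -18.4, and ND library C stood apart from the other ND libraries on the second, at 26.5 against 10.9 and 9.35. The number of genes called was 438 without HFD library C, 389 without HSD library A and 505 without both. Markers of the cells that a dissected heart may carry were compared between the diets, which does not check the tissue label itself. Cardiac tube markers summed to between 443 and 589 RPKM on HSD and between 430 and 614 on HFD. These sums lie far below those of oenocyte and fat body markers given further on, and sums over different genes do not measure shares of cells. None of 7 cardiac tube markers was called between the diets (limma with Benjamini-Hochberg adjustment; 0 at an unadjusted p under 0.05 and 0 by limma-voom), with a median log2FC of -0.05. None of 10 hemocyte markers and none of 5 pericardial nephrocyte markers was called either, with 3 and 2 of them at an unadjusted p under 0.05 and 0 and 0 called by limma-voom. Over all genes tested, 2153 of 8356 had an unadjusted p under 0.05 in limma. The hemocyte median was -0.06, whereas all 5 pericardial markers had a negative log2FC, with a median of -0.32, and 1 was called without HSD library A. Markers of male germline and of indirect flight muscle fell below the limit for testing, and eggshell and ovary markers summed to between 10.9 and 92.0 RPKM on HSD, between 12.9 and 26.0 on HFD and to 65.0, 144 and 1563 on ND, where library C was far above the other 2. Of 3 tracheal markers, *serp* was called (log2FC 0.76), and not without HFD library A or B. Markers of fat body, oenocytes, ovary and midgut are given beside the genes they belong with. In pooled tissue, fewer cells of a type and less RNA per cell cannot be told apart.

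Between HSD and HFD, 364 of 8356 genes were called (4.36%), 146 higher on HSD (1.75%) and 218 lower (2.61%). The libraries of the 2 diets did not overlap for 2496 genes (29.9%), and for 363 of the 364 called. These shares over all genes are the background for every count of called or non-overlapping genes between HSD and HFD below. For counts at an unadjusted p under 0.05 (limma), the background is 2153 of 8356 genes. The median log2FC over all genes was -0.01. With RPKM left as deposited it was -0.07, and 115 genes were called higher and 277 lower, so that 29.3% of calls were higher on HSD against 40.1% after scaling. Leaving out 1 library at a time (9 leave-one-out fits), 186 of the called genes were called each time, 71 higher and 115 lower on HSD. No called gene changed sign in any of them. As 363 of the 364 had non-overlapping libraries, this was all but fixed in advance and does not measure stability. The count fell to 238 without HSD library B. Most differences were moderate. The median absolute log2FC was 0.81 for genes higher on HSD and 0.89 for genes lower, with 43 and 83 genes at 2-fold or more and 8 and 11 at 4-fold or more.

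**Figure D1:**
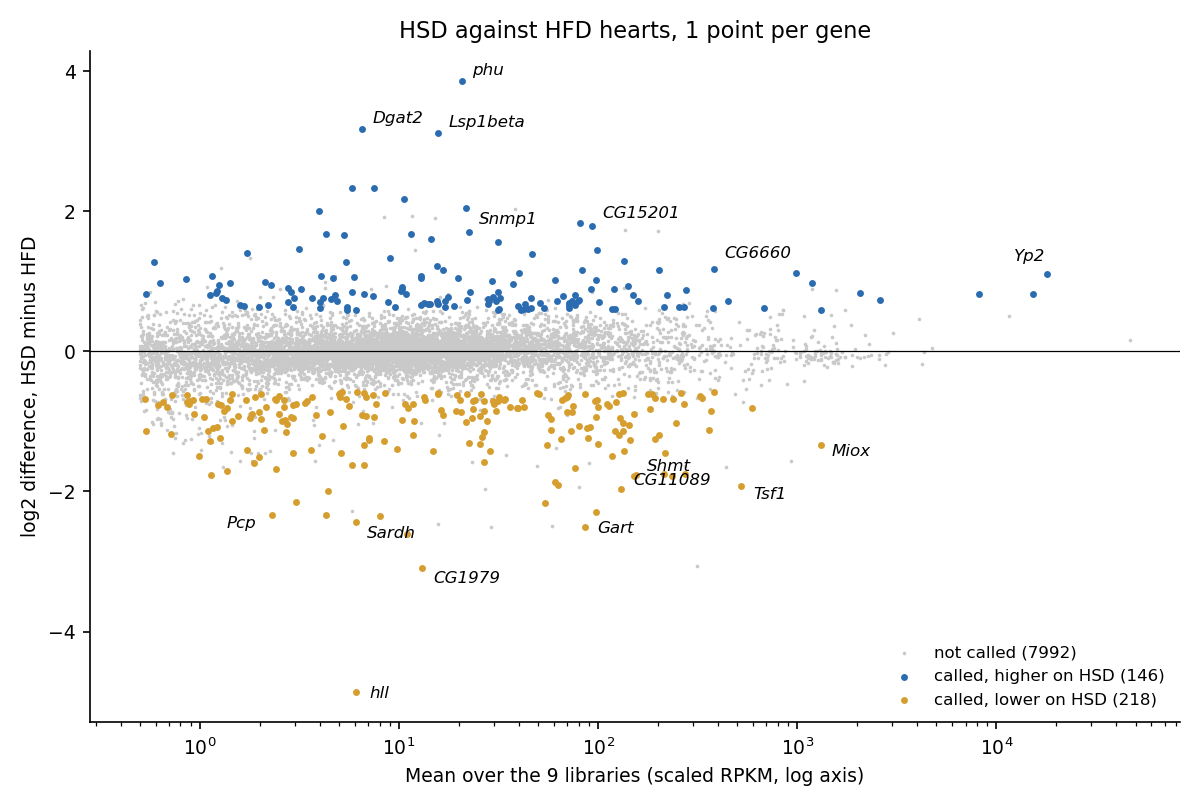
Difference between the diets for each of the 8356 genes tested (vertical axis, log2FC of HSD versus HFD) against mean expression over the 9 libraries (horizontal axis, scaled RPKM on a log axis). Blue points are the 146 genes called higher on HSD, yellow points the 218 called lower and grey points the rest. The 2 extremes, *phu* at 3.86 and *hll* at -4.86, lie at moderate expression.

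For the called genes, mean levels on ND mostly lay between those of the 2 diets. The ND mean was between the HSD and HFD means for 106 of the 146 genes higher on HSD and for 174 of the 218 lower, above both for 31 and 39, and below both for 9 and 5. These genes were selected for a wide gap between HSD and HFD, which by itself favours an ND mean inside the gap. The share over all genes is not given here, so the counts do not test whether ND is intermediate. The share of genes called against ND was 3.3% on HSD and 1.91% on HFD. Among the genes lower on HSD than on HFD, 105 were called against ND on HSD alone, 15 on HFD alone, 6 on both and 92 on neither. Among the genes higher on HSD, the numbers were 29, 39, 6 and 72. Both of these comparisons use the same ND libraries. They also reuse the HSD and HFD libraries by which these genes were selected. The shares called against ND over all genes are therefore no background for these counts.

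Of 13 genes of serine, glycine and threonine metabolism, 8 were lower on HSD than on HFD (background 2.61% lower, 4.36% in either direction), with a median log2FC of -0.91. No member was called higher. Serine is made from a glycolytic intermediate in 3 steps. *CG6287*, the dehydrogenase of the first step, had a log2FC of -0.58 and missed the fold threshold. *CG11899*, the phosphoserine aminotransferase, was at 134, 104 and 102 RPKM on HSD and 272, 301 and 237 on HFD, a log2FC of -1.25 ± 0.13 (SE; adjusted p = 0.0011, limma with Benjamini-Hochberg adjustment). *aay*, the phosphatase of the last step, averaged 230.4 ± 6.53 RPKM on HSD and 367 ± 43.5 RPKM on HFD (SD, n = 3 per diet), and its call was lost without HFD library C. For both called genes, all HSD libraries lay below all ND and HFD libraries.

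*Shmt*, which moves a one-carbon unit from serine to folate and leaves glycine, was at 79.8, 53.0 and 66.9 RPKM on HSD, 277, 222 and 187 on HFD and 174, 149 and 159 on ND. The 3 diets did not overlap, with HSD lowest and HFD highest, and the log2FC was -1.77 ± 0.17 (SE; adjusted p = 0.001, limma with Benjamini-Hochberg adjustment). The glycine cleavage system, which releases a further one-carbon unit, was lower for 2 of the 3 subunits looked at. *CG3999*, its decarboxylase, averaged 7.47 ± 2.17 RPKM on HSD and 20.6 ± 3.42 RPKM on HFD (SD, n = 3 per diet), a log2FC of -1.43, and *CG6415*, its aminomethyltransferase, a log2FC of -0.91 that was lost without any 1 of HSD libraries B and C and HFD libraries A and B. *ppl*, the lipoyl carrier subunit, was at -0.04. *Tdh*, a threonine dehydrogenase, was called at -1.33 but not without any 1 HSD library, HFD library A or HFD library C. *CG10184*, a predicted threonine aldolase, had a log2FC of -1.01. Its levels were 35.0, 31.0 and 26.8 RPKM on ND, 10.1, 9.26 and 14.6 on HSD and 20.7, 24.1 and 23.9 on HFD, so that both diets lay below ND.

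*Sardh* and *Gnmt* are the 2 enzymes of the sarcosine cycle, in which *Gnmt* methylates glycine to sarcosine at the expense of S-adenosylmethionine and *Sardh* turns it back into glycine. *Sardh* was at 1.23, 1.17 and 1.97 RPKM on HSD and 17.9, 7.19 and 7.39 on HFD, so the diets did not overlap and HFD library A was well above the other 2. Its log2FC was -2.43 ± 0.35 (SE; adjusted p = 0.0041, limma with Benjamini-Hochberg adjustment). *Gnmt* had the opposite sign. It was at 573, 192 and 331 RPKM on ND, 21.4, 22.5 and 59.5 on HSD and 8.01, 6.38 and 13.5 on HFD, and its log2FC between the diets, 1.73 ± 0.49, was not called (adjusted p = 0.058, limma with Benjamini-Hochberg adjustment), although the 2 diets did not overlap. Of 8 genes of the methionine cycle and transsulfuration, 1 was called, the predicted homocysteine methyltransferase *CG10621*, with 53.5 ± 9.54 RPKM on HSD and 143 ± 13.2 on HFD (SD, n = 3 per diet) and a log2FC of -1.42. The median of that list was -0.01.

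The folate carriers and the steps that build the purine ring were lower on HSD for 9 of the 17 genes measured, with none called higher and a median log2FC of -0.86. The number called lay between 8 and 9 in the leave-one-out fits. The folate enzymes *pug* and *Nmdmc* interconvert one-carbon units on tetrahydrofolate, *pug* in the cytosol and *Nmdmc* in mitochondria. *Nmdmc* was at 31.8, 16.0 and 18.3 RPKM on HSD, 123, 80.4 and 90.2 on HFD and 47.6, 39.1 and 42.0 on ND. HSD libraries lay below and HFD libraries above all ND libraries, and the log2FC was -2.17 ± 0.24 (SE; adjusted p = 0.0017, limma with Benjamini-Hochberg adjustment). *pug* was at 94.7 ± 22.8 RPKM on HSD and 318 ± 57.7 RPKM on HFD (SD, n = 3 per diet), a log2FC of -1.75. The remaining folate genes were not called, among them *CG8665* at -0.67, *Mthfs* at -0.21 and *CG7560* at -0.04.

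**Figure D2:**
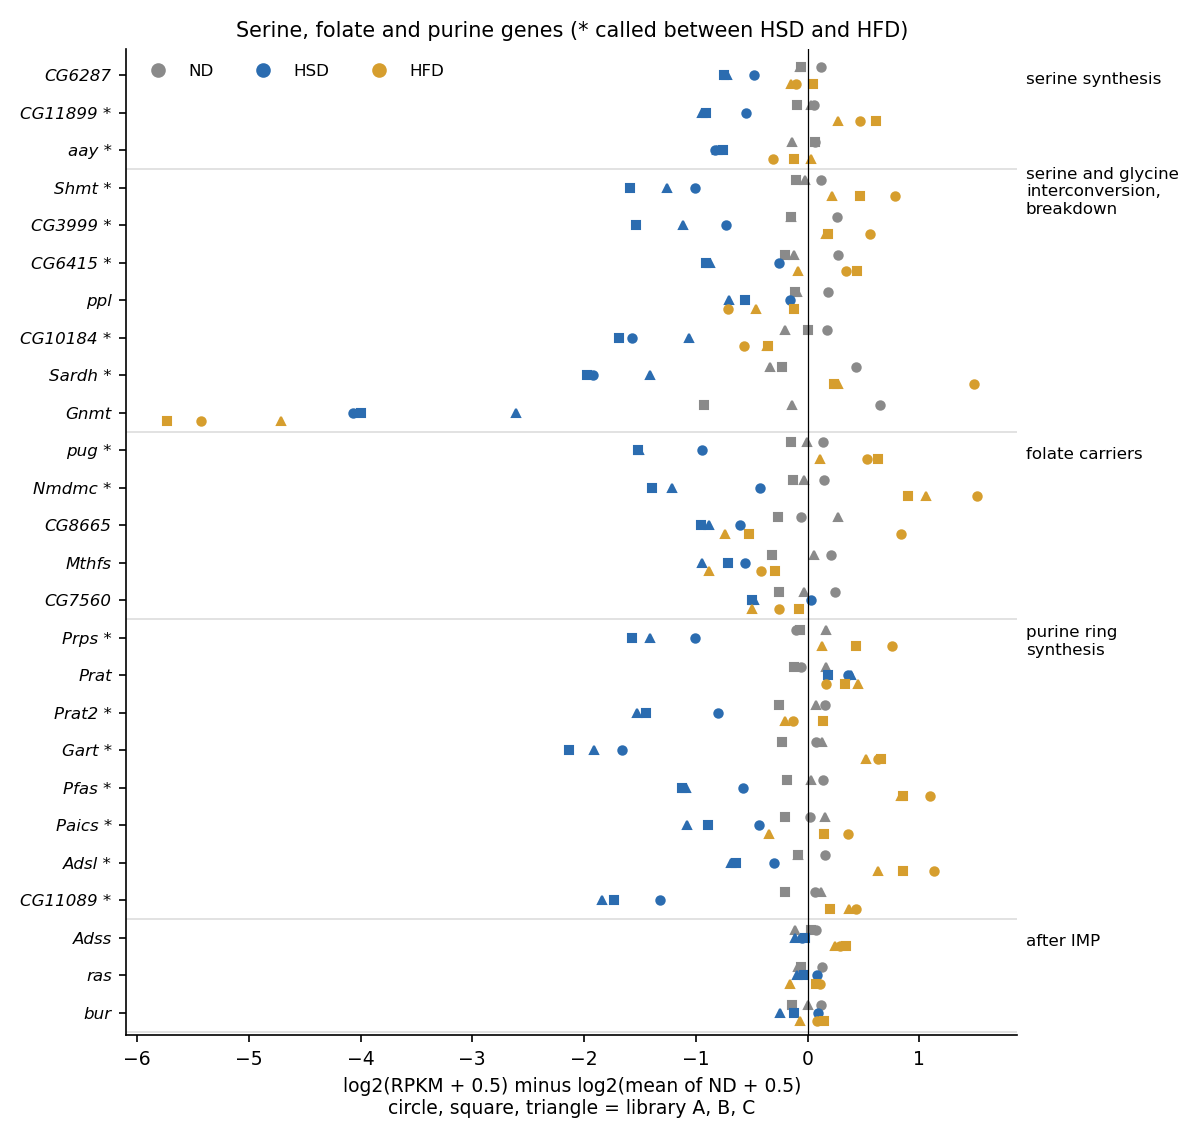
Expression of serine, folate and purine genes in each library as log2(scaled RPKM + 0.5) minus the log2 of the ND mean plus 0.5 (horizontal axis), 1 gene per row, grey ND, blue HSD and yellow HFD, with circle, square and triangle for libraries A, B and C. Blue points lie left of yellow points in every row marked with an asterisk (called), while *Gnmt* has both diets far left of ND with HFD lowest, and *Prat*, *ras* and *bur* lie near 0 on both diets.

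*Gart* was the gene of purine synthesis with the largest difference. It encodes a protein of 3 enzymatic activities in the pathway and lies on chromosome 2L from 7014623 to 7023898 of the BDGP6 annotation, on the minus strand. It was at 28.8, 20.8 and 24.3 RPKM on HSD, 143, 146 and 133 on HFD and 97.8, 78.8 and 101 on ND, on at least 7558 reads in every library. All HSD libraries were below all ND libraries and all HFD libraries were above them, and the log2FC between the diets was -2.50 ± 0.13 (SE; adjusted p = 4.1e-05, limma with Benjamini-Hochberg adjustment). Against ND it was -1.89 on HSD and 0.61 on HFD, both called. *Pcp*, a pupal cuticle protein gene, lies inside the span of *Gart* on the other strand, from 7021682 to 7022470, with no exon overlap. *Pcp* moved likewise, from 3.97, 4.16 and 3.82 RPKM on HFD to 0.331, 0.457 and 0.373 on HSD, a log2FC of -2.34 ± 0.13 (SE; adjusted p = 4.7e-05, limma with Benjamini-Hochberg adjustment). Its HSD libraries held 19 to 25 reads. Whether reads from introns of *Gart* were counted on *Pcp* was not tested.

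Other steps of ring synthesis were lower on HSD as well. *Prps*, which makes the ribose phosphate donor, was at 83.4, 56.3 and 62.8 RPKM on HSD and 284, 227 and 183 on HFD (log2FC -1.77). *Pfas*, the amidotransferase of the fourth step, was at 35.5, 24.1 and 24.7 on HSD and 114, 96.5 and 95.4 on HFD (log2FC -1.86), with HSD below and HFD above every ND library. *CG11089*, which catalyses the last steps to inosine monophosphate, was at 60.1, 45.1 and 41.8 on HSD and 204, 173 and 195 on HFD (log2FC -1.96 ± 0.14, SE; adjusted p = 0.00029, limma with Benjamini-Hochberg adjustment). These 3 genes were called in all leave-one-out fits. *Adsl*, which is listed under another label and was realigned, had a log2FC of -1.42, *Prat2* of -1.19 and *Paics* of -0.86. *Paics* was the least stable of the genes called in this pathway and passed only without ND library B, HSD library A or HFD library C. The paralog of *Prat2*, *Prat*, which encodes the same committing amidotransferase, was at -0.01. Beyond inosine monophosphate, *ras* on the branch to guanine nucleotides was at -0.02, *bur* at -0.14 and *Adss* on the branch to adenine nucleotides at -0.36, and none of these 3 was called.

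Of 7 genes of purine breakdown, 3 were lower on HSD and none higher. *ry*, xanthine dehydrogenase, was at 6.86, 5.72 and 6.53 RPKM on HSD and 17.1, 16.5 and 12.6 on HFD (log2FC -1.20). *CG16758*, a predicted purine nucleoside phosphorylase, had 105 ± 25.1 RPKM on HSD and 287 ± 48.0 RPKM on HFD (SD, n = 3 per diet; log2FC -1.46). *Adgf-D*, an adenosine deaminase growth factor, had a log2FC of -1.07 and lost its call without HSD library B, HFD library A or HFD library B. HSD libraries lay below HFD libraries for all 3 genes.

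Maltases and amylases cut dietary sugars and starch down to glucose. All 7 measured had non-overlapping libraries with HSD below HFD (background 29.9% without overlap in either direction). Of these, 4 were called lower (background 2.61%), and the median log2FC was -1.19. *Amy-d* and *Amy-p* are neighbouring and near-identical amylase genes, so their reads may have been split between them. *Amy-d* was at 10.9, 11.2 and 13.5 RPKM on HSD, 25.2, 31.9 and 34.4 on HFD and 42.0, 29.8 and 30.0 on ND, a log2FC of -1.32. *Amy-p*, from a realigned row, was at 0.665, 0.858 and 1.63 on HSD and 4.17, 8.30 and 9.98 on HFD, a log2FC of -2.33 ± 0.31 (SE; adjusted p = 0.0032, limma with Benjamini-Hochberg adjustment). The maltase *Mal-B2* had 109 ± 25.4 RPKM on HSD and 251 ± 62.0 RPKM on HFD (SD, n = 3 per diet; log2FC -1.19) and lost its call without any 1 of HSD libraries B and C and HFD libraries A and B. Of 12 midgut markers, 5 passed the limit for testing. All 5 had a negative log2FC, with a median of -0.50, or -0.41 without the maltase among them, and none was called (limma with Benjamini-Hochberg adjustment; 1 at an unadjusted p under 0.05, 0 by limma-voom), although 2 were called without HFD library C. The midgut markers summed to between 32.5 and 35.7 RPKM on HSD and between 34.3 and 44.2 on HFD, so the sums overlapped, and the part of midgut content in these differences was not tested. *Mal-B1*, at under 2 RPKM in every library, had a log2FC of -1.27.

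The Leloir pathway converts galactose to glucose 1-phosphate. All 7 genes measured had a negative log2FC, with a median of -0.61, and 3 were called. *CG32444*, the galactose mutarotase, was at 131, 75.5 and 95.7 RPKM on HSD and 309, 442 and 282 on HFD, a log2FC of -1.78 ± 0.23 (SE; adjusted p = 0.003, limma with Benjamini-Hochberg adjustment). An antisense gene covers 28.6% of its exon bases. *Galk*, galactokinase, was at 104, 66.6 and 67.1 on HSD and 172, 181 and 127 on HFD (log2FC -1.03) and shares 25.1% of its exon bases with *CG13314* on the other strand. Without HSD library B, HSD library C, HFD library A or HFD library B, *CG32444* was the 1 gene of this list still called. *Galt* (-0.46), *Pgm1* (-0.69) and *UGP* (-0.31) were not called.

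Among 20 genes of glycolysis and pyruvate metabolism, 4 were called, all lower on HSD, and the median was -0.09. *Hex-C*, the hexokinase of fat body type, was at 82.5, 52.5 and 44.7 RPKM on HSD and 179, 213 and 117 on HFD (log2FC -1.50), whereas *Hex-A* was at 0.28 and not called. *Pepck2*, a phosphoenolpyruvate carboxykinase of gluconeogenesis from a realigned row, was at 3.79, 2.78 and 2.40 on HSD, 12.6, 9.15 and 8.96 on HFD and 5.32, 3.81 and 3.37 on ND (log2FC -1.62 ± 0.20, SE; adjusted p = 0.0023, limma with Benjamini-Hochberg adjustment), with HFD alone above ND. *fbp*, fructose bisphosphatase, and *Tpi*, triose phosphate isomerase, had log2FC of -0.67 and -0.59, and the call of *fbp* was lost without ND library C, HSD library B or C, or HFD library A or B, and that of *Tpi* without HSD library B or C or HFD library B. The number called in this list ranged from 2 to 5 in the leave-one-out fits, with 2 without HSD library B, HSD library C or HFD library B.

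Of 16 genes of glycogen and trehalose storage and transport, 4 were lower on HSD and none higher. *nebu*, a sugar transporter of the Glut family, was at 103, 71.5 and 82.0 RPKM on HSD, 222, 201 and 146 on HFD and 138, 114 and 123 on ND. HSD lay below and HFD above every ND library, and the log2FC was -1.14 ± 0.18 (SE; adjusted p = 0.0058, limma with Benjamini-Hochberg adjustment). The glycogen synthase gene *Glys* had 50.4 ± 8.08 RPKM on HSD and 78.8 ± 7.44 RPKM on HFD (SD, n = 3 per diet; log2FC -0.65), and the predicted sugar transporters *CG1213* and, from a realigned row, *CG4607* had log2FC of -1.05 and -0.87. The calls of *Glys* and *CG1213* were lost without HSD library B, HSD library C, HFD library A or HFD library B, and that of *CG4607* without any ND library as well. Genes of trehalose, the blood sugar of insects, were not called, with *Tps1* at -0.07 and *Treh* at -0.06.

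Further sugar and polyol enzymes were lower on HSD. *Miox*, which opens the ring of myo-inositol, was at 792, 696 and 700.2 RPKM on HSD and 2178, 2167 and 1337 on HFD (log2FC -1.34). *Taldo*, the transaldolase of the pentose phosphate pathway, was at 514, 371 and 417 on HSD and 736, 908 and 639 on HFD (log2FC -0.81) and was the only 1 of 7 genes of that pathway to be called. It lost the call without HSD library B or C. *Sodh2*, a sorbitol dehydrogenase from a realigned row, was at 3.05, 2.47 and 2.05 RPKM on HSD and 20.5, 18.4 and 8.46 on HFD (log2FC -2.35), with an antisense gene over 60.8% of its exon bases. In the tricarboxylic acid cycle, 1 of 17 genes was called, the succinyl-CoA ligase subunit *ScsbetaA* at 309, 274 and 245 on HSD and 473, 441 and 371 RPKM on HFD (log2FC -0.63), while ND was at 290.3, 249 and 261, and its call was lost without HSD library B, HSD library C, HFD library A or HFD library B. The row of *ScsbetaA* did not give whole reads at its annotated length. The median of that cycle was -0.20.

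The aminotransferases that link this cycle with aspartate and glutamate were lower on HSD with tight replicates. *Got1*, the cytosolic enzyme, was at 152, 138 and 162 RPKM on HSD, 305, 319.7 and 294 on HFD and 292, 263 and 282 on ND, a log2FC of -1.02 ± 0.08 (SE; adjusted p = 0.00052, limma with Benjamini-Hochberg adjustment). *Got2*, the mitochondrial enzyme, was at 231, 192 and 227 on HSD, 494, 504 and 421 on HFD and 425, 355 and 389 on ND (log2FC -1.13). HSD libraries were below all ND and HFD libraries for both. They were the only 2 called of 15 genes of branched-chain amino acid, proline and glutamate metabolism, whose median was -0.06. In phenylalanine and tyrosine metabolism, *Hn*, phenylalanine hydroxylase, was lower on HSD (log2FC -0.66), and *ple*, tyrosine hydroxylase, was higher (log2FC 0.98) on less than 1.5 RPKM in every library. Their calls were lost in 3 and 4 leave-one-out fits, *Hn* without HSD library C, HFD library A or HFD library B and *ple* without any HSD library or HFD library B.

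Fatty acid activation held the largest difference of the whole comparison. *hll* (heimdall) encodes a very-long-chain acyl-CoA synthetase related to *bgm* (bubblegum) and lies on chromosome 2L from 14027001 to 14029368 of the BDGP6 annotation. It was at 23.2, 14.7 and 13.9 RPKM on HFD, 0.0770, 0.0952 and 0.115 on HSD and 1.14, 1.20 and 0.651 on ND. The 3 diets did not overlap, and the HFD mean was 180.4-fold above the HSD mean, on 2080 to 3230 reads per HFD library and 15 to 18 per HSD library. The log2FC with the pseudocount was -4.86 ± 0.21 (SE; adjusted p = 9.9e-06, limma with Benjamini-Hochberg adjustment). Against ND it was 3.55 on HFD and -1.31 on HSD, both called. *bgm* itself had a log2FC of -0.91 and was not called.

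Of 28 genes of fatty acid activation and oxidation, 4 were lower on HSD, 1 was higher, and the median was -0.18. *CG3902*, a predicted short branched-chain acyl-CoA dehydrogenase, was at 49.5, 43.3 and 50.5 RPKM on HSD and 137, 112 and 94.3 on HFD (log2FC -1.24). *CG9547*, a predicted glutaryl-CoA dehydrogenase, was at 16.1, 14.3 and 14.8 on HSD and 39.9, 32.1 and 31.2 on HFD (log2FC -1.16). These 2 act on chains that come from amino acids. *CG17597*, of peroxisomal beta-oxidation, had a log2FC of -0.60 and lost its call without HSD library B or HFD library B. The core of mitochondrial beta-oxidation was not called, with *whd*, the carnitine palmitoyltransferase, at -0.39, *Mcad* at -0.39, *Mtpalpha* at -0.12 and *Mtpbeta* at -0.26. The 1 gene higher on HSD was the acyl-CoA oxidase *Acox57D-d*, at 18.9, 17.2 and 16.7 RPKM on HSD, 10.9, 10.4 and 10.8 on HFD and 12.8, 11.7 and 11.4 on ND (log2FC 0.69 ± 0.07, SE; adjusted p = 0.0011, limma with Benjamini-Hochberg adjustment).

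**Figure D3:**
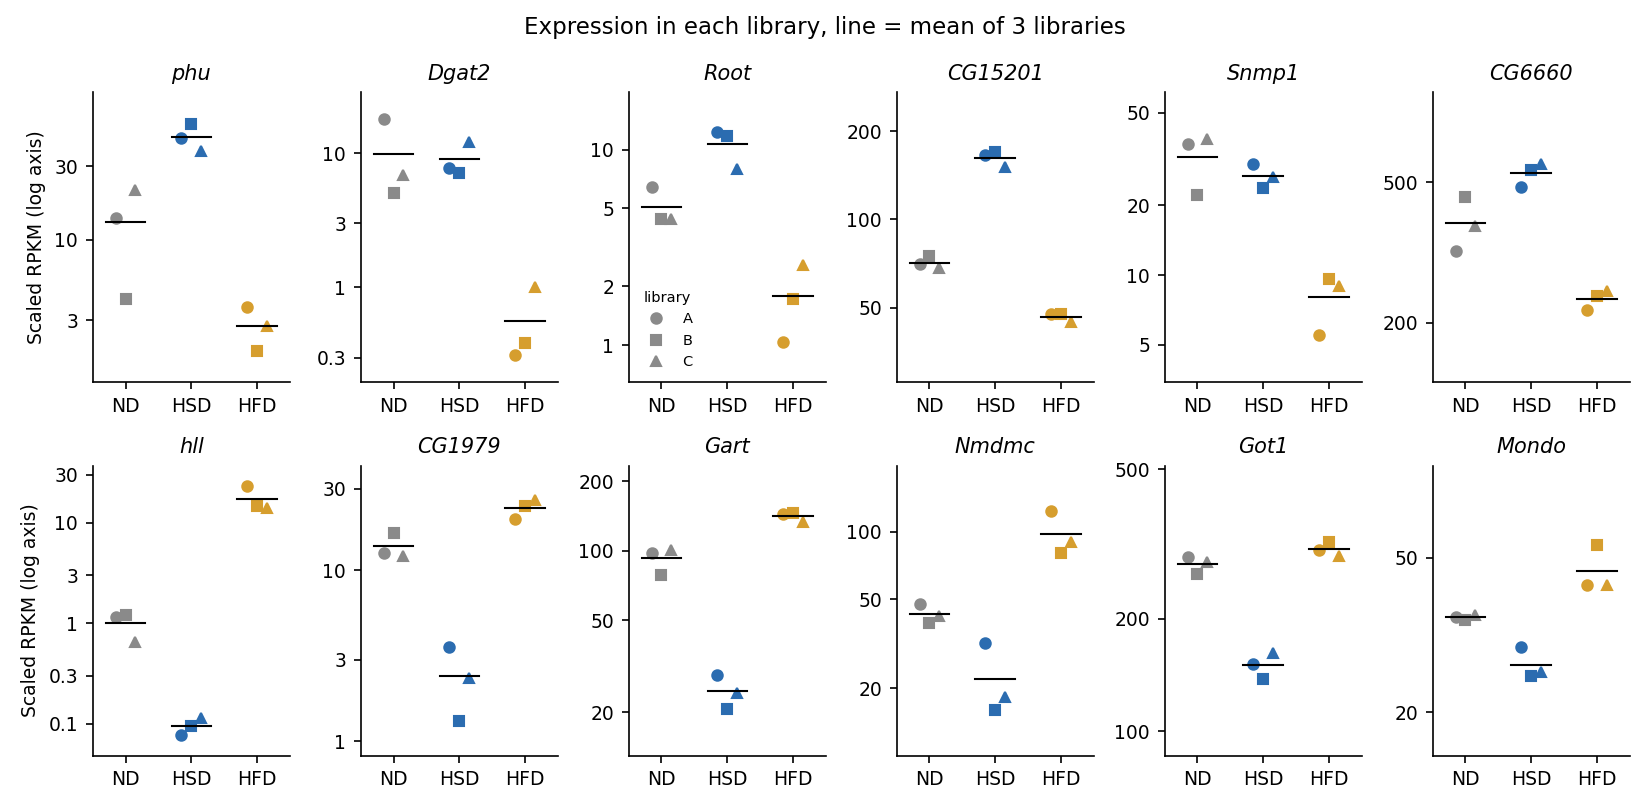
Scaled RPKM of 12 genes in each of the 9 libraries (log axis, own scale per gene), with circles, squares and triangles for libraries A, B and C and a line at the mean of each diet. The upper row holds genes higher on HSD than on HFD and the lower row genes lower on HSD. HSD and HFD do not overlap in any panel, and ND lies between them in all panels but those of *Dgat2* and *Snmp1*, where it overlaps HSD.

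Of 9 genes of triglyceride synthesis, 2 were called higher on HSD and 1 lower (background 1.75% higher, 2.61% lower), with a median log2FC of 0.10. *mino*, the glycerol-3-phosphate acyltransferase of the first step, was lower on HSD, at 56.8, 53.3 and 47.2 RPKM against 117, 114 and 103 on HFD and 122, 90.9 and 114 on ND (log2FC -1.08 ± 0.12, SE; adjusted p = 0.0015, limma with Benjamini-Hochberg adjustment). An antisense gene covers 42.4% of its exon bases. *Agpat3*, of the second step, was higher on HSD, at 181, 189 and 216 against 103, 124 and 129 (log2FC 0.72), and lost its call without HSD library C or HFD library A. *Dgat2*, a diacylglycerol acyltransferase of the last step on chromosome 2R from 7712578 to 7714182 of the BDGP6 annotation, was at 7.81, 7.07 and 12.1 RPKM on HSD, 0.315, 0.383 and 1.00 on HFD and 17.9, 5.05 and 6.83 on ND. Its HFD libraries held 26 to 102 reads and lay below all others. The log2FC was 3.17 ± 0.43 (SE; adjusted p = 0.0032, limma with Benjamini-Hochberg adjustment), and against ND it was 0.03 on HSD and -3.14 on HFD. The other enzyme of this step, *mdy*, was at 0.40 and *Lpin* at -0.18, and neither was called.

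Lipases were lower on HSD for 3 of 9 genes of lipid droplets and triglyceride breakdown, with none higher. *bmm*, the triglyceride lipase of lipid droplets, was at 76.9, 69.9 and 57.6 RPKM on HSD, 116, 122 and 115 on HFD and 119.9, 106 and 113 on ND, so only HSD lay apart from ND. *CG5966*, a predicted triglyceride lipase, showed another pattern, with 106, 99.0 and 87.1 on HSD, 186, 162 and 221 on HFD and 106, 94.9 and 95.2 on ND, so that HFD lay apart. Their log2FC were -0.79 and -0.95. *Lip2* was called at -0.80, among the leave-one-out fits only without ND library A, ND library B or HFD library B. *Hsl* was at -0.01 and the droplet coat gene *Lsd-2* at -0.07.

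Of 22 genes that elongate, desaturate or reduce very-long-chain fatty acids or turn them into hydrocarbons, 6 were higher on HSD and none lower (background 1.75% higher), and the median log2FC was 0.46. *CG6660*, a predicted elongase, was at 483, 543 and 564 RPKM on HSD, 217, 238 and 246 on HFD and 319, 455 and 375 on ND, a log2FC of 1.18 ± 0.13 (SE; adjusted p = 0.0016, limma with Benjamini-Hochberg adjustment). HSD lay above and HFD below every ND library. *Elovl7* was at 79.9, 82.1 and 76.1 on HSD and 33.0, 38.3 and 47.1 on HFD (log2FC 1.01), *eloF*, the elongase of female pheromone hydrocarbons, at 2425, 2996 and 2874 on HSD and 1315, 1572 and 1770.2 on HFD (log2FC 0.84), and the predicted desaturase *CG15531* at 1425, 1622 and 1565 on HSD and 793, 802 and 746 on HFD (log2FC 0.98). The fatty acyl reductases *FarO* and *CG17562* had log2FC of 0.81 and 0.64, and *CG17562* lost its call without any 1 HSD or HFD library. That of *eloF* was lost without HSD library B, HSD library C, HFD library A or HFD library B. Between 4 and 8 members were called in the leave-one-out fits, 4 without HSD library B, HSD library C or HFD library A. *Cyp4g1*, the P450 that makes the hydrocarbons in the last step and is the hallmark of oenocytes, was at 0.17, and *bond* at 0.21, and neither was called.

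Outside this list, abundant genes with the same sign included *CG16904* and *CG31523*, 2 further members of the elongase family, with log2FC of 0.74 and 0.59, and *FASN3*, a fatty acid synthase, at 1051, 1152 and 1526 RPKM on HSD and 512, 469.8 and 753 on HFD (log2FC 1.12). Among the leave-one-out fits, *FASN3* passed only without ND library A, ND library B or HFD library C, *CG31523* only without ND library A, ND library B or HSD library A, and *CG16904* in all but those without HSD library B, HSD library C or HFD library A. *FASN3* and *Desat2*, a desaturase of hydrocarbon synthesis (log2FC 0.86), were the 2 of 12 genes of fatty acid synthesis called higher, and 1 of the 12 was called in all without HSD library B, HSD library C, HFD library A or HFD library B. *FASN1* was at -0.16, *ACC* at -0.05 and *ATPCL* at 0.01, and none was called. *AcCoAS*, the acetyl-CoA synthetase, was lower on HSD (log2FC -0.59), and its call was lost without HSD library B, HSD library C, HFD library A or HFD library B.

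Most of these genes are known from oenocytes. Of 7 oenocyte markers, which include *eloF*, *FarO*, *FASN3* and *Desat2*, all had a positive log2FC, with a median of 0.84, and 5 were called, or 3 without HSD library B, HSD library C, HFD library A or HFD library B. Their summed level, dominated by *Cyp4g1*, was between 52175 and 63518 RPKM on HSD and between 44868 and 55912.5 on HFD, so the sums overlapped. The part of oenocyte content in these differences was not tested.

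**Figure D4:**
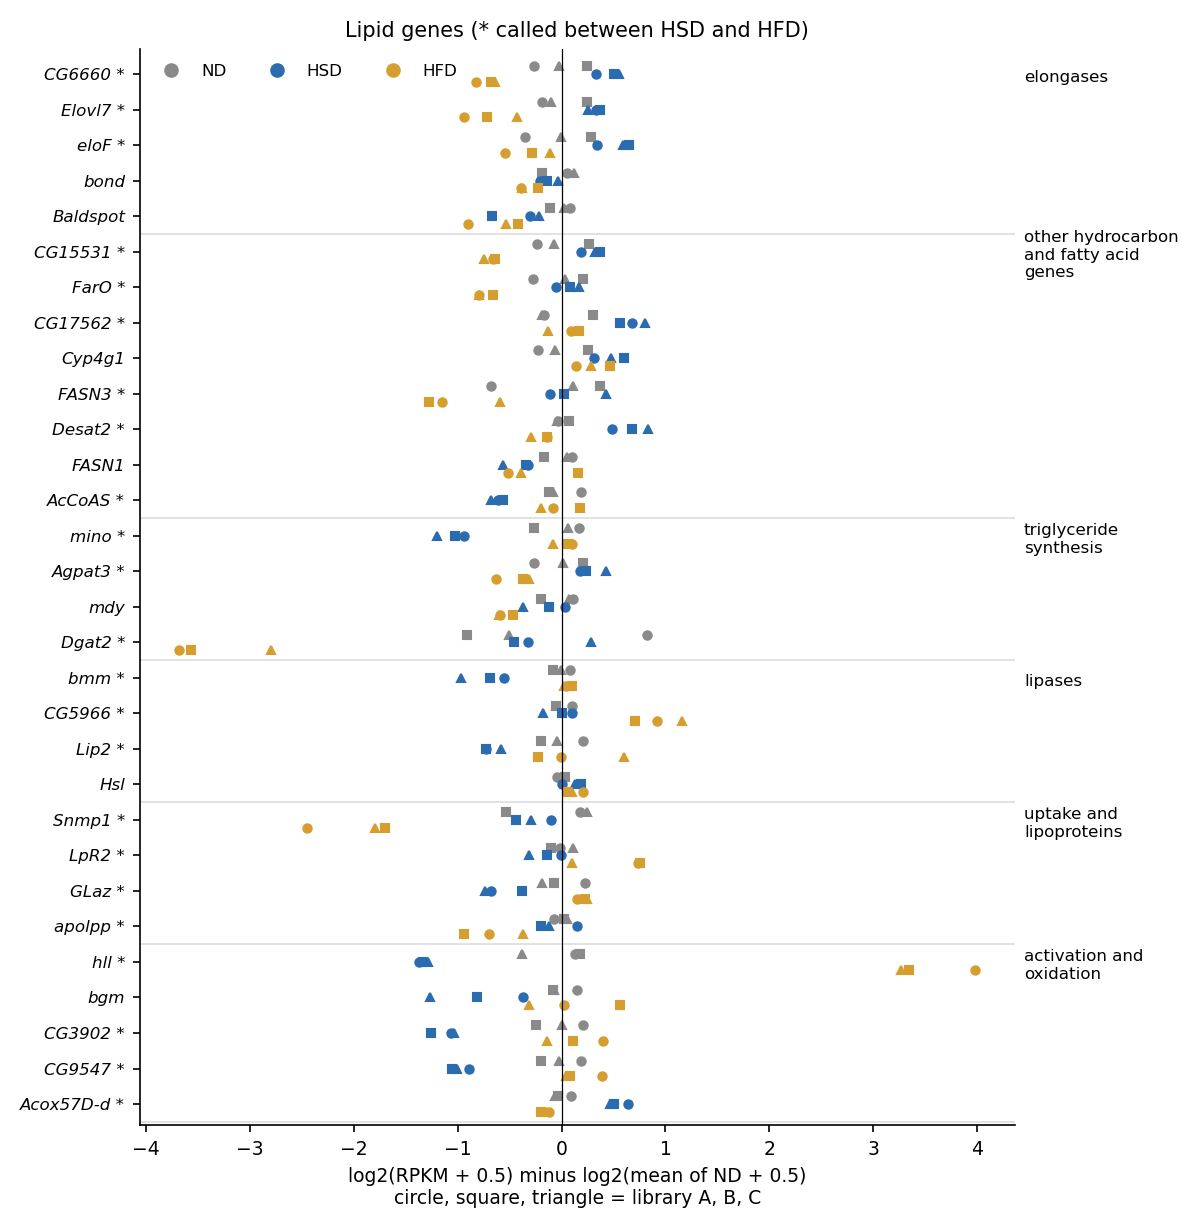
Expression of lipid genes in each library as log2(scaled RPKM + 0.5) minus the log2 of the ND mean plus 0.5 (horizontal axis), 1 gene per row, with colours and symbols for diets and libraries as given in the panel and an asterisk for genes called between HSD and HFD. Elongases lie right of HFD on HSD, *Dgat2* and *Snmp1* lie far left on HFD alone, and *hll* lies far right of ND on HFD and left of ND on HSD.

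Of 5 yolk and storage protein genes, 3 were higher on HSD than on HFD, with a median log2FC of 1.11. The yolk proteins are made by fat body and ovary in adult females. *Yp2* was at 15893, 18279 and 14821 RPKM on HSD, 6995, 6769.8 and 9106 on HFD and 34856, 26436 and 27989.7 on ND, a log2FC of 1.11 ± 0.19 (SE; adjusted p = 0.0081, limma with Benjamini-Hochberg adjustment). The 3 diets did not overlap, and both rich diets were below ND, HFD furthest. The 13 ovary and eggshell markers tested had a median log2FC against ND of -2.04 on HSD and -3.16 on HFD, with 0 and 1 called, and the part of ovary content in the difference from ND was not tested. *Yp3* followed the same order (log2FC 0.82), but among the leave-one-out fits passed only without ND library A or B, and was at -0.15 under quantile normalization, and *Yp1* was at 0.51 and not called. *Lsp1beta*, a larval serum storage protein from a row listed as *mRpL12*, was at 12.1, 20.1 and 53.1 RPKM on HSD and 1.13, 2.13 and 4.52 on HFD, a log2FC of 3.11 ± 0.59 (SE; adjusted p = 0.014, limma with Benjamini-Hochberg adjustment), and lost its call without HFD library A, where 1 of the 5 genes was called.

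Of 9 fat body markers, 3 were called higher on HSD, 7 had a positive log2FC, and the median was 0.51, but 4 of the 9 are the yolk and storage proteins themselves, with 2 of the 3 calls. The other 5 markers had a median of 0.22, 3 of them positive, and 1 was called. Of the 3 calls, 1 was left without ND library C, HFD library A, HFD library B or any 1 HSD library. The summed level of all 9 was 97.0% to 98.9% yolk and storage protein in each library and so repeats the values of those genes. Without them the sums were 1067, 849 and 864 RPKM on HSD, 645, 585 and 746 on HFD and 980, 996 and 1025 on ND, and HSD did not overlap HFD. Most of that sum came from the 1 of these markers called, *apolpp*, the apolipoprotein of the main lipid carrier of the hemolymph, at 865, 679.9 and 719 RPKM on HSD and 482, 406 and 602 on HFD (log2FC 0.61), which among the leave-one-out fits passed only without HFD library C. The part of fat body content in these differences was not tested.

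Among 21 genes of lipid uptake and lipoproteins, 3 were higher on HSD and 2 lower, and 3 were called in all without ND library A, HSD library B or C, or HFD library A or B. *Snmp1*, a receptor of the CD36 family, was at 30.2, 23.8 and 26.4 RPKM on HSD, 5.53, 9.65 and 9.01 on HFD and 36.6, 22.2 and 38.4 on ND, and lies on chromosome 3R from 21165167 to 21168205 of the BDGP6 annotation without sharing exon bases with another gene. HSD overlapped ND, HFD lay below both, and the log2FC between the diets was 1.70 ± 0.24 (SE; adjusted p = 0.0042, limma with Benjamini-Hochberg adjustment). *CG7227*, of the same family, was called at 0.95 on about 2 RPKM, with an antisense gene over 55.2% of its exon bases. *Snmp2* was at -0.09 and *crq* at 0.15. The lipocalin gene *GLaz* was lower on HSD, at 7.22, 9.00 and 6.92 against 13.2, 14.0 and 14.1 (log2FC -0.80), and so was the lipophorin receptor gene *LpR2* (log2FC -0.68, among the leave-one-out fits passing only without HFD library C), whereas its paralog *LpR1* was at 0.39 and not called.

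In the list of secreted nutrient signals and the insulin pathway, 2 of 20 genes were called and the median was 0.04. *InR*, the insulin receptor, was lower on HSD, at 4.86, 6.26 and 5.49 RPKM against 9.66, 8.47 and 7.62 on HFD and 4.94, 6.30 and 6.49 on ND (log2FC -0.59 ± 0.13, SE; adjusted p = 0.022, limma with Benjamini-Hochberg adjustment). HFD alone lay above ND, and the call was lost without HSD library A, HSD library C, HFD library A or HFD library B. *Nplp2*, a secreted peptide precursor, was higher on HSD, at 12134, 9086 and 8004 against 5727, 5435 and 5190.3 (log2FC 0.82), and lost its call without ND library C, HSD library B or any 1 HFD library. *ImpL2*, a secreted binding protein of insulin-like peptides, was above every ND library on both diets, at 125, 117 and 125 RPKM on ND, 268, 289.7 and 256 on HSD and 250.4, 209 and 161 on HFD, and the difference between the diets was not called (log2FC 0.41, adjusted p = 0.11, limma with Benjamini-Hochberg adjustment). *fit*, a satiety signal of the fat body, was at 685, 481 and 494 RPKM on ND, 139, 181 and 242 on HSD and 109.8, 82.6 and 159.5 on HFD, below ND on both diets, with overlapping HSD and HFD libraries and a log2FC of 0.69 (adjusted p = 0.15, limma with Benjamini-Hochberg adjustment).

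Among 21 nutrient-sensing transcription factors, 1 was called. *Mondo* was at 29.5, 24.7 and 25.3 RPKM on HSD, 42.5, 54.1 and 42.5 on HFD and 35.1, 34.7 and 35.6 on ND, a log2FC of -0.79 ± 0.11 (SE; adjusted p = 0.0032, limma with Benjamini-Hochberg adjustment), and was called in all leave-one-out fits. HSD lay below and HFD above every ND library, and neither diet was called against ND. Its partner *bigmax* was at -0.11, *sug* at -0.35, *cbt* at 0.16, *SREBP* at -0.19 and *foxo* at -0.35, and none of these was called.

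Detoxification genes were called in both directions. Of 58 cytochrome P450 genes measured, 6 were higher on HSD and 5 lower, and the median was -0.06. The 5 lower ones are *Cyp309a1* and *Cyp309a2*, *Cyp28d1* and *Cyp28d2*, and *Cyp6g1*. *Cyp309a1* was at 3.17, 2.16 and 3.88 RPKM on HSD and 10.3, 11.5 and 9.18 on HFD (log2FC -1.63), and *Cyp28d2* at 1.98, 1.73 and 1.91 on HSD, 6.34, 4.63 and 6.60 on HFD and 3.72, 2.65 and 2.91 on ND (log2FC -1.41 ± 0.15, SE; adjusted p = 0.0012, limma with Benjamini-Hochberg adjustment), with HSD below and HFD above ND. The higher ones are *Cyp12b2*, *Cyp4ac1*, *Cyp4ac2*, *Cyp305a1*, *Cyp4d20* and *Cyp4p3*, with log2FC between 0.66 and 1.04. Among the leave-one-out fits, *Cyp4p3* passed only without HFD library A, *Cyp4ac2* lost its call without any 1 HSD library, HFD library A or HFD library B, and *Cyp4d20* without HFD library C. Of 42 glutathione and UDP-glycosyl transferase genes, 2 were higher and 4 lower. *GstT4* was at 187, 167 and 195 RPKM on HSD and 84.9, 90.6 and 112 on HFD (log2FC 0.94), and *GstD10* at 1.74, 1.35 and 1.38 on HSD and 3.54, 3.28 and 3.19 on HFD (log2FC -0.95). Neighbouring genes of these families are similar in sequence, and how reads shared between them were counted is not given in the sources used here. Of 15 odorant-binding protein genes, 2 were higher on HSD, the neighbours *Obp57b* and *Obp57c*, with log2FC of 0.80 and 0.71, and *Obp57b* lost its call without any 1 HSD library, HFD library A or HFD library B. The row of *Obp57b* did not give whole reads at its annotated length.

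The proteasome differed by little but in a uniform way. All 30 subunit genes measured had HSD libraries above HFD libraries (background 29.9% without overlap in either direction), with log2FC between 0.31 and 0.64 and a median of 0.40. All 30 had an unadjusted p under 0.05 (limma), against 2153 of the 8356 genes tested. Only *Prosalpha5*, at 261, 276 and 272 RPKM on HSD and 154, 191 and 177 on HFD (log2FC 0.64), and *Rpn12*, at 149.9, 152 and 149 on HSD and 88.5, 109 and 99.4 on HFD (log2FC 0.61), passed the 1.5-fold threshold and were called, neither of them without HFD library A. With RPKM as deposited, all 30 values stayed positive, with a median of 0.33, and none was called. The median against ND was 0.47 on HSD and 0.05 on HFD. Subunits of 1 complex were measured in the same libraries, so they are not independent of one another.

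Ribosomal and respiratory genes were not called. Counts at an unadjusted p under 0.05 stand beside 2153 of 8356 over all genes tested. Among 84 cytosolic ribosomal protein genes, 0 were called (limma with Benjamini-Hochberg adjustment; 0 at an unadjusted p under 0.05, 0 by limma-voom), with a median log2FC of -0.07. Among 72 mitochondrial ribosomal protein genes the median was -0.01, with 20 at an unadjusted p under 0.05 and 0 called by either method. Among 66 genes of the respiratory chain and ATP synthase it was 0.07, with 13 and 0. None of 20 vacuolar ATPase, 17 cytosolic aminoacyl-tRNA synthetase, 8 circadian clock and 21 neprilysin genes was called either, with 3, 2, 2 and 4 at an unadjusted p under 0.05 and 0 by limma-voom in each.

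Immune and stress genes varied widely within diets. None of 15 antimicrobial peptide genes and none of 12 Bomanin genes was called (limma with Benjamini-Hochberg adjustment; 0 and 0 at an unadjusted p under 0.05 and 0 by limma-voom). Without HSD library A and HFD library C together, 5 and 2 of them were called. *DptB*, an antibacterial peptide gene from a realigned row, was at 953, 40.5 and 172 RPKM on HSD and 205, 335 and 28.1 on HFD, so single libraries of either diet were high and the diets overlapped. Of 9 peptidoglycan recognition proteins, 1 was called. *PGRP-LB*, an amidase that degrades bacterial peptidoglycan, was lower on HSD, at 27.4, 19.6 and 19.1 RPKM against 42.7, 48.1 and 40.8 on HFD and 17.3, 17.7 and 16.0 on ND, a log2FC of -0.99 ± 0.13 (SE; adjusted p = 0.0032, limma with Benjamini-Hochberg adjustment). All HFD libraries lay above all others.

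Of the Turandot and metallothionein genes, 0 of 9 were called, although 6 had an unadjusted p under 0.05 and 1 was called by limma-voom, and 3 were called without HFD library C. *TotA*, a secreted stress protein, was at 2051, 1695 and 454 RPKM on HFD and 419.6, 287 and 505 on HSD, where HFD library C was within the range of HSD. *MtnA*, a metallothionein, was at 2919, 1494 and 1529 on HSD and 781, 1308 and 1026 on HFD. Among 16 heat shock genes none was called (0 at an unadjusted p under 0.05, 0 by limma-voom) and among 15 antioxidant genes none (7 at an unadjusted p under 0.05, 0 by limma-voom).

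Contractile and regulatory genes of the heart gave 0 or 1 call per list between the diets. The share called over all genes was 4.36%, so lists this short would hold few calls at that share as well. Of 23 sarcomere genes, 0 were called (limma with Benjamini-Hochberg adjustment; 0 at an unadjusted p under 0.05, 0 by limma-voom), and the median log2FC was -0.02. *Mhc*, the muscle myosin heavy chain, was at 179, 276 and 323 RPKM on HSD and 336, 230.4 and 263 on HFD, with overlapping libraries and a log2FC of -0.12 ± 0.22 (SE). Of 14 cardiac transcription factors, 0 were called (3 at an unadjusted p under 0.05, 0 by limma-voom), and *Hand* was at 235, 210.4 and 219.9 on HSD and 234, 158 and 301 RPKM on HFD (log2FC -0.01). Of 19 ion channel and calcium handling genes, 1 was called. *cac*, a voltage-gated calcium channel subunit, was lower on HSD, at 0.504, 0.720 and 0.693 RPKM against 2.18, 1.48 and 1.42 on HFD and 1.02, 0.869 and 0.558 on ND (log2FC -0.93), and lost its call without HFD library A. Its row did not give whole reads at its annotated length. Of 15 genes of the heart extracellular matrix, 1 was called, *Tig* at 0.72, from a realigned row, and not without HSD library B or HFD library B.

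**Figure D5:**
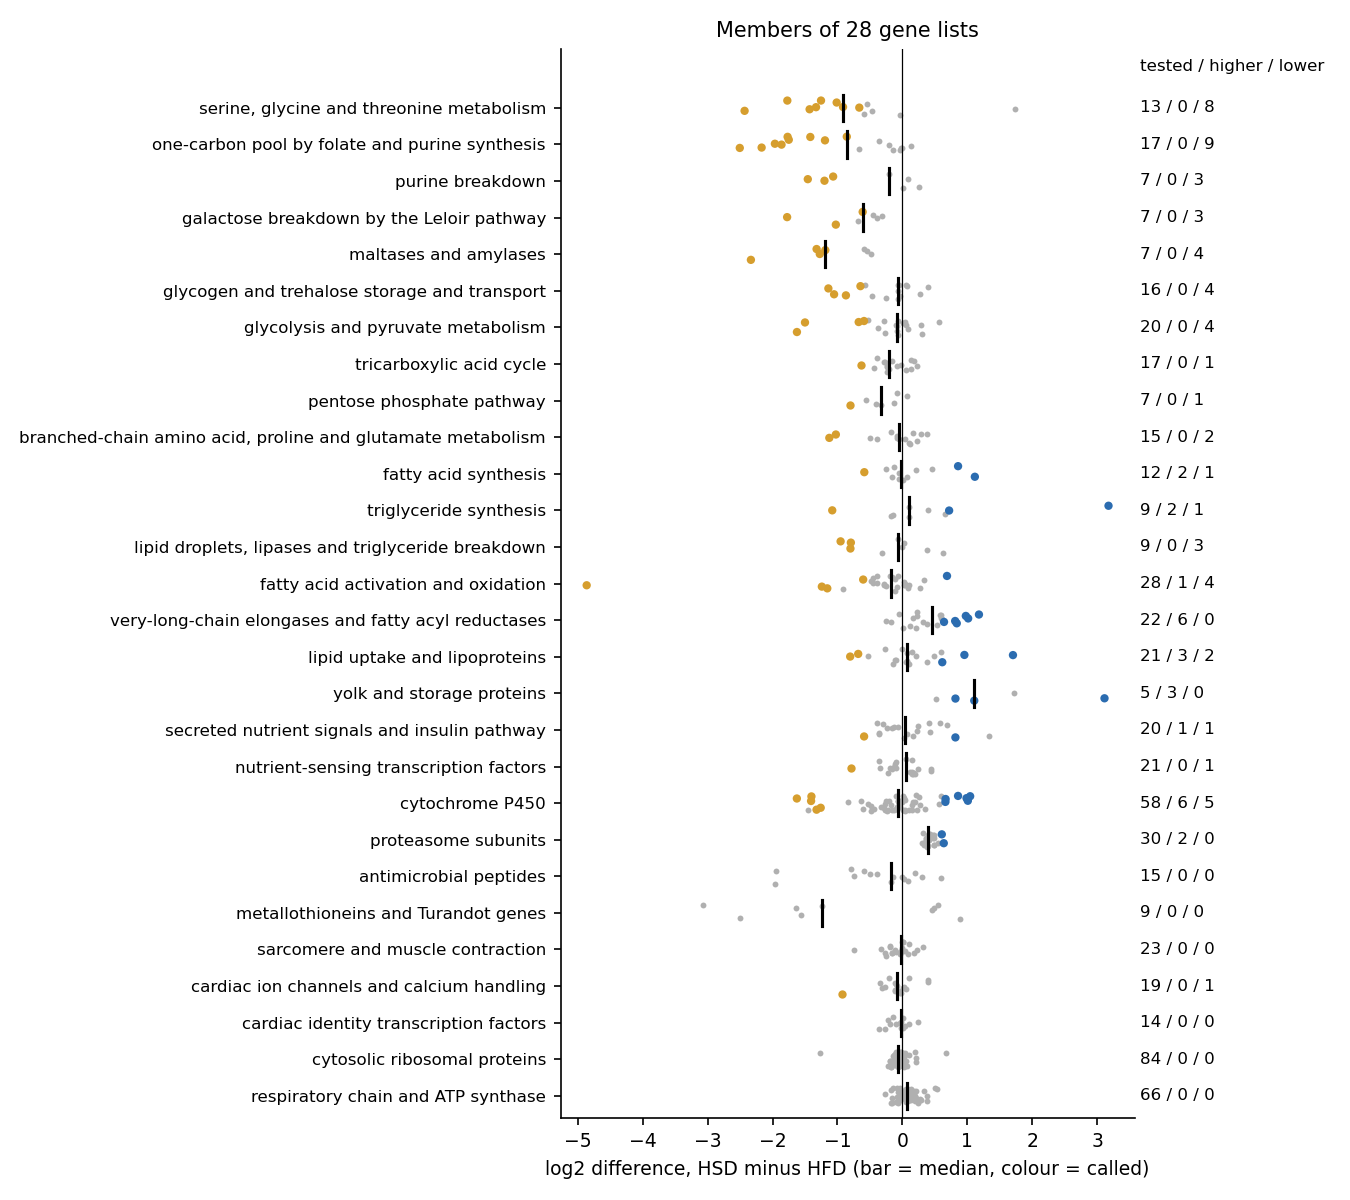
Log2FC of HSD versus HFD (horizontal axis) for every measured member of 28 gene lists, 1 point per gene, blue if called higher on HSD, yellow if called lower and grey if not called, with a black bar at the list's median. The numbers at the right give genes tested, called higher and called lower. All maltases and Leloir genes and most serine and folate genes lie left of 0, all proteasome genes lie right of 0, and the medians of sarcomere and ribosome genes lie near 0.

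Several of the largest differences fell outside these lists. *phu*, which encodes an alkaline phosphatase and lies on chromosome 3R from 9494801 to 9496723 of the BDGP6 annotation, was at 45.4, 56.6 and 37.4 RPKM on HSD, 3.64, 1.91 and 2.76 on HFD and 13.9, 4.16 and 21.0 on ND. HSD lay above and HFD below every ND library, and the log2FC was 3.86 ± 0.48 (SE; adjusted p = 0.0025, limma with Benjamini-Hochberg adjustment). *Root*, rootletin of the ciliary rootlet, was at 12.3, 11.7 and 7.99 on HSD and 1.03, 1.72 and 2.57 RPKM on HFD (log2FC 2.33), also on either side of ND at 6.40, 4.42 and 4.41. The neighbouring genes *CG30280* and *CG30281* on chromosome 2R had log2FC of 2.33 and 2.18, and the rows of *CG30280* did not give whole reads at its annotated length. *Invadolysin*, a metalloprotease found at lipid droplets, from a row listed under another label, was at 38.8, 43.9 and 24.4 on HSD and 5.31, 9.39 and 10.3 RPKM on HFD (log2FC 2.04). *CG15201* had close replicates, at 166, 170.0 and 151 RPKM on HSD, 47.5, 47.6 and 44.5 on HFD and 70.5, 74.9 and 68.0 on ND, a log2FC of 1.79 ± 0.07 (SE; adjusted p = 9.9e-06, limma with Benjamini-Hochberg adjustment).

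On the other side, *CG1979* was at 3.54, 1.32 and 2.34 RPKM on HSD and 20.0, 23.8 and 25.6 on HFD (log2FC -3.09). *CG7763*, a predicted C-type lectin, was at 5.81, 1.53 and 2.24 on HSD and 26.7, 21.9 and 12.7 on HFD (log2FC -2.61), and *CG3699*, a predicted short-chain dehydrogenase, at 35.8, 13.4 and 29.7 on HSD and 117, 150.3 and 99.5 on HFD (log2FC -2.29). None of these 3 overlapped between the diets, and HSD library A was the highest of its diet in each. *Tsf1*, the iron-carrying transferrin of the hemolymph, was at 233, 109 and 201 RPKM on HSD, 368, 1098 and 699 on HFD and 785, 578 and 640.3 on ND, so HSD lay apart while HFD and ND overlapped. Its log2FC was -1.93 ± 0.39 (SE; adjusted p = 0.018, limma with Benjamini-Hochberg adjustment), and the call was lost without HSD library B or HFD library B. *tld*, the tolloid metalloprotease, was at 2.04, 1.27 and 1.54 on HSD, 6.78, 8.80 and 7.98 on HFD and 3.90, 3.61 and 3.93 RPKM on ND (log2FC -1.99), with HSD below and HFD above every ND library.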

How the data were processed

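Stranded, rRNA-depleted total RNA libraries from dissected hearts were sequenced by the authors, trimmed with Sickle, aligned with Subread 1.6.1 to dm3 and counted per gene with featureCounts 1.6.1, after which identifiers were updated to dm6. The authors deposited RPKM without scaling between libraries. Whether strand was used in counting is not given in the sources used here, so reads of overlapping or antisense genes cannot be told apart. Decimal commas, found in 28.4% of cells, were read as points. Labels in 9 stretches were realigned by fixed offsets of up to 5 rows. As a check, RPKM times annotated exon length then gave whole reads (tolerance 0.01) for 95.4% of rows there and 94.9% elsewhere. Reads per library (59941761 to 90069216) follow from these steps. RPKM was divided by scale factors of 0.940 to 1.09, genes with a mean of at least 0.5 were kept, and log2(RPKM + 0.5) was fitted in limma 3.58.1 (R 4.3.3) over 3 diets, with an intensity trend in the prior variance and Benjamini-Hochberg adjustment over 8356 genes. The test was run on simulated reads drawn independently for each gene, with values not reported here. Deviations shared by many genes of a library were not simulated, so the test was not checked for them.

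Genes to be named, 153 in all, were the 12 largest calls in each direction, the 20 most abundant calls, up to 4 calls of lowest adjusted p per list (or its 2 most abundant genes where none was called), all calls of the serine, folate, sugar entry, lipid synthesis and hormone lists, and 7 genes the study followed up. Values of some list members are not reported here. Any other gene named was picked with its values in view. The members and the 55 lists were chosen with earlier results of these data known. Sequences are not shown here. Positions come from the BDGP6 annotation, and the files give none. Alternatives changed scaling, pseudocount, filter, test, labels, the libraries used and a replicate block.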

Additional observations from a re-analysis of the deposited data

How the results depend on the processing

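Counts of genes called between HSD and HFD, 364 with the settings of the report, lay between 311 and 395 under 12 settings that changed 1 choice of scaling, filter, pseudocount, test or libraries. They were 789 without the fold threshold and 479 with an unadjusted p. The fits that left out 1 library gave 238 (HSD library B) to 438 (HFD library C). Leaving out HSD library A and HFD library C together, an alternative chosen after seeing the data, gave 505. RPKM as deposited gave 115 higher and 277 lower. With the library letter as a replicate block, 376 genes were called. Deviations of same-letter libraries from their diet means had r between -0.25 and 0.27, over 0.1 in 4 of 9 pairs. For libraries of different letter and diet, r lay between -0.32 (ND library A with HSD library C) and 0.36 (HSD library A with HFD library B). The labels do not tie a letter to a collection date, so no pairing is assumed, although the study set up the diets side by side on each date. With labels as listed, 7 of the 14 named genes in shifted stretches changed sign, since the row then belongs to another gene: *Adsl* 0.034, *CG3999* 0.16, *Cyp12b2* -0.42, *Invadolysin* -0.035, *Sodh2* 0.16, *Tig* -0.17 and *serp* -0.14. Under quantile normalization *Yp3* was at -0.15, and the cause was not tested. Of the 108 named genes that were called, 33 lost their call without HFD library A, 29 without HSD library B, 29 without HSD library C, 26 without HFD library B, 10 without ND library C, 8 without HSD library A, 8 without HFD library C, 3 without ND library A and 2 without ND library B. Genes near 0.5 RPKM rest on few reads, and differences below the spread of 3 libraries were not detectable here.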

Other observations

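Genes outside the lists and outside the naming rule, chosen here after their values were seen, include enzymes of small metabolites that were lower on HSD than on HFD. They are a pick and not a count of such enzymes. Other enzyme genes were called higher on HSD, among them *Pbgs* (log2FC 0.62) and *Nadk1a*, given below. *Hao*, a hydroxyacid oxidase, had mean levels of 26.0 RPKM on HSD, 99.5 on HFD and 62.8 on ND (log2FC -1.91). *Sodh1*, a sorbitol dehydrogenase, had 100.1, 327 and 388 RPKM (log2FC -1.75). *Odc2*, an ornithine decarboxylase, had 5.25, 14.3 and 9.64 RPKM (log2FC -1.40), *Argl*, the argininosuccinate lyase, 34.8, 77.0 and 107.9 (log2FC -1.14), and *Adh*, the alcohol dehydrogenase, 1.36, 3.63 and 3.17 (log2FC -1.16). All 5 were called in all 9 leave-one-out fits. *trbl*, a pseudokinase that restrains insulin signalling in Drosophila, was also lower on HSD (15.3 against 35.8 RPKM, log2FC -1.22), and so was *NimC4*, a phagocytic receptor (12.9 against 33.3 RPKM, log2FC -1.31). Among genes higher on HSD were *Ssk*, a protein of smooth septate junctions, with 8.32 RPKM on HSD, 2.26 on HFD and 5.36 on ND (log2FC 1.66), and *Nadk1a*, an NAD kinase, with 214 RPKM on HSD, 87.1 on HFD and 105.4 on ND (log2FC 1.29). The parts of gut, fat body or other tissue in these differences were not tested.

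Of the 364 genes called, 15 are not protein coding, 7 higher and 8 lower on HSD. The antisense RNA *asRNA:CR44035* was the largest of those higher, with mean levels of 51.4 RPKM on HSD, 17.0 on HFD and 25.7 on ND (log2FC 1.57). The most abundant was *lncRNA:CR43196*, with 366 RPKM on HSD, 200.2 on HFD and 261 on ND (log2FC 0.87). Lower on HSD were *lncRNA:CR44177*, with 1.08 RPKM on HSD and 6.76 on HFD (log2FC -2.14), which stood out on HFD alone, and *lncRNA:CR44756*, with 0.619, 3.09 and 3.57 RPKM (log2FC -1.69), which stood out on HSD alone. These 4 were called in all 9 leave-one-out fits. The 2 microRNA genes called were *mir-966* (log2FC -0.98) and *mir-1015* (log2FC 1.04). The first lost its call without HSD library B, HSD library C or HFD library B, and the second without any 1 HSD or HFD library. The reads are those of a long-RNA library and do not measure the mature microRNA.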
